A study of Homo sapiens with 4 samples.

Results

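Described here are 64 protein-coding genes abundant in leukemia cells given DMSO, with the lowest share of their transcript left after dBET1. A gene was taken when it had at least 300 counts in each of the 2 DMSO libraries and when its mean CPM (counts scaled to a library total of 1000000) with dBET1 was at most 0.3 of its mean CPM with DMSO. Of the 64252 genes in the count table, 8444 were protein-coding and reached the count minimum, and 64 of these were taken. Another 6 genes met both conditions and were left out by name, under a rule that set aside 5 single genes, among them HK2, LIN28A and FKBP4, and the SLC7A and SLC38A transporter families. Together these 70 genes were 0.829% of the 8444. The ratio itself chose the genes, so their levels are given as a description and carry no test.

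The cells carry the label NB4, a promyelocytic leukemia line with the PML-RARa fusion, and were treated for 24 h with 8 μM dBET1 (2 libraries) or with DMSO, the solvent (2 libraries), with no other agent in either group. Total RNA was sequenced, and the DMSO libraries held 34685645 and 30631745 counts, the dBET1 libraries 28019956 and 28349721. The libraries of a group are numbered replicates 1 and 2, and nothing in the labels says whether they came from separate cultures, so p-values measure the spread between these libraries, which may be technical. dBET1 is a degrader that joins a ligand of BET bromodomains to a ligand of CRBN, the adaptor of a ubiquitin ligase, so that BET proteins are tagged and taken to the proteasome. BET proteins read acetylated lysines on histones at active promoters and enhancers and help RNA polymerase II to pass from its pause into elongation. Genes that blood cells keep at a high level through large enhancers, MYC the best known, are therefore the textbook example of genes that lose transcript when BET proteins are removed.

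The libraries lacked the defining granule markers of the labelled line. Of 12 neutrophil granule and promyelocyte markers, ELANE and CTSG had 0 counts in all 4 libraries and MPO had 0 counts in both DMSO libraries and 22 and 10 counts with dBET1. The summed level of these 12 was 42.0 and 44.8 CPM in the DMSO libraries and 33.0 and 32.4 CPM with dBET1, mostly from LYZ, CD33 and CFD. In contrast, 16 erythroid markers summed to 8008 and 8764 CPM with DMSO and to 5494 and 5468 CPM with dBET1, and the fetal globin gene HBG2 alone had 80407, 83875, 51641 and 53799 counts in the order DMSO replicate 1, DMSO replicate 2, dBET1 replicate 1 and dBET1 replicate 2. All counts for single libraries below follow this order. Of the erythroid markers, 13 of 16 had at least 300 counts in each DMSO library. Markers of megakaryocytes (10 genes) summed to 39.2 and 51.1 CPM with DMSO and 20.9 and 30.7 CPM with dBET1, those of monocytes (7 genes) to 17.1 and 21.7 CPM and 19.1 and 19.5 CPM (a sum of opposite differences, with CD68 at 542, 636, 176 and 255 counts, ITGAM at 22, 9, 170 and 152 and FCGR1A at 6, 0, 144 and 87), and those of lymphoid cells (8 genes) to 28.2 and 31.1 CPM and 14.3 and 14.4 CPM. The part of these shifts in the genes described below was not tested, and in bulk RNA fewer cells of a type cannot be told apart from less RNA in each cell.

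The 64 genes together held 5012 and 5370 CPM in the DMSO libraries and 1294 and 1260 CPM in the dBET1 libraries, which left 24.6% of their summed level. The median gene kept 25.1% of its DMSO level, between 0.393% and 29.99%. Across all 8444 abundant coding genes the median ratio was 0.978 with quartiles of 0.736 and 1.30, 553 genes (6.55%) had a ratio of 0.5 or less, and 53 genes were at least as far above 1 as the limit of 0.3 is below it. Both DMSO libraries lay above both dBET1 libraries for 64 of 64 genes, a pattern that 43.6% of the abundant coding genes shared. In edgeR's quasi-likelihood test, with p adjusted by Benjamini and Hochberg over all genes, 64 of 64 passed an adjusted p under 0.05 with a log2 fold change under -1, a call that 8.54% of the 17971 tested genes received. The choice of the genes fixed these counts.

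**Figure D1:**
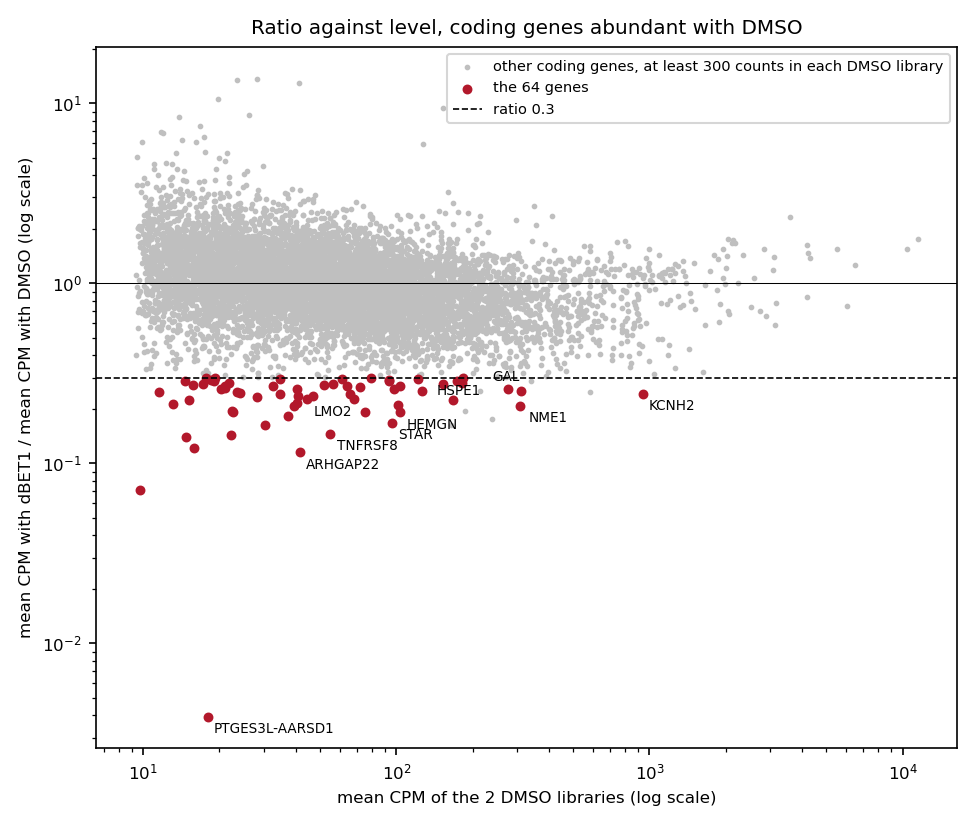
Mean CPM of the 2 DMSO libraries (horizontal, log scale) against the ratio of mean CPM with dBET1 to mean CPM with DMSO (vertical, log scale) for the 8444 abundant coding genes, with the 64 genes in red and the limit of 0.3 dashed. The 6 grey points under the dashed line are the genes left out by name, and most genes scatter around the median ratio of 0.978.

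Promoter sequence was available from RefSeq (GRCh38.p14) for 49 of the 64 genes, 76.6%, and 15 had no entry, among them PTGES3L-AARSD1, STAR, CRYAB, MYEOV, NEFH, LMO2, CPNE7, MGAT3, GAL, SELPLG, P2RX5, PRG2, DNLZ and RAC3. With under 80% of the genes matched, a comparison of shares is void, and the letters are given as a description only. The letters CACGTG, known as the E-box that MYC and related factors bind, were searched between 250 bases before and 50 bases after the first listed start. They read the same on both strands. They were found at 13 of the 49 genes (FJX1, TNFRSF8, F2RL3, LRFN4, NME1, COMTD1, KCNH4, POLR1G, HSPE1, GTF3C6, ISOC2, RFESD and RRP9). Of all 15345 coding-gene windows 8.89% held them, and of the 6992 windows of other abundant coding genes 11.2%. These shares are given for the letters themselves. AGATAA or TGATAA, the letters of GATA factor sites, searched on both strands, were found at 6 of the 49 genes. They are held by 11.9% of all coding-gene windows and by 6.86% of those of other abundant coding genes. Further letter patterns were searched in the same windows and are not named here. Each of these had a smaller share at the 49 genes than at other abundant coding genes. The rarest was found at 2.04% and 14.2%, the most frequent at 69.4% and 73.2%. The patterns named here are thus those with the larger share at the 49 genes, and none of these shares allows a comparison. The windows of the 49 genes had a median GC content of 67.0%. Below are 180 bases, 150 before and 30 after the start, for 5 genes that held CACGTG, from the mitochondrial, ribosome and receptor groups below, and for KCNH2, the gene with the most counts, which did not. They lie at chr2:197500229-197500408 (plus strand), chr3:51941875-51942054 (minus), chr19:45406494-45406673 (plus), chr19:16888849-16889028 (plus), chr11:66856914-66857093 (plus) and chr7:150978292-150978471 (minus), and are written 5′ to 3′ on the gene's strand with CACGTG in capitals.
HSPE1: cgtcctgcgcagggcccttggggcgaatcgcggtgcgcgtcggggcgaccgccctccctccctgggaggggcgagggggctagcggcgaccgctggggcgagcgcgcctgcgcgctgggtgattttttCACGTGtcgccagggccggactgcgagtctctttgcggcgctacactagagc
RRP9: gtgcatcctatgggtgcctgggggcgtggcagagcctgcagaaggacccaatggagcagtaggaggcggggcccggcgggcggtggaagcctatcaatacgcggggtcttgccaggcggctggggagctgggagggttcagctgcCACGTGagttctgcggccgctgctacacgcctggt
POLR1G: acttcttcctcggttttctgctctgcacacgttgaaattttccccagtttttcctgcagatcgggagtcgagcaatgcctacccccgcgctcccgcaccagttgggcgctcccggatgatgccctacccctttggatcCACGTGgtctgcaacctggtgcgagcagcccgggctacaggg
F2RL3: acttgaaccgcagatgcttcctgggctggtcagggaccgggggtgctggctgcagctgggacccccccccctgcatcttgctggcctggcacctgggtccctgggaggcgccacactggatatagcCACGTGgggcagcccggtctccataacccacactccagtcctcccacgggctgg
LRFN4: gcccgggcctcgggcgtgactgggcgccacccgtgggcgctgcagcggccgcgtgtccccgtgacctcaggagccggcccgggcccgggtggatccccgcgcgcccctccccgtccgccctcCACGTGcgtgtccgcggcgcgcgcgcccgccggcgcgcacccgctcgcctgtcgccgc
KCNH2: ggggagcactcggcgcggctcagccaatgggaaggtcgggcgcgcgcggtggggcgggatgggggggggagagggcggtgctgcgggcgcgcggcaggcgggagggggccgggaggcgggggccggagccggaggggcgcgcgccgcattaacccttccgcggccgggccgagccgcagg
The letters began 22 bases before the start of HSPE1, 5 before that of RRP9, 12 before that of POLR1G, 24 before that of F2RL3 and 28 before that of LRFN4. The RefSeq start lies 239 bases from the GENCODE gene start for HSPE1 and 417 bases from it for LRFN4. Other searched starts lie further from it: 1472 bases for COL4A2, 10340 for SLC19A1, 25520 for GRAP2 and 87165 for WNT5B. The GATA letters of SLC19A1 were found at that distant start. KCNH2 has 5 listed starts and only the first was searched, so the absence of CACGTG holds for that start alone.

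Receptors, channels and surface proteins made up 13 of the 64 genes, and 24.1% of their summed CPM was left. KCNH2 (ENSG00000055118, chr7:150944961-150978321, minus strand of hg38), the hERG potassium channel that repolarises heart muscle and is also made by leukemia cells, had 31721, 29500, 6471 and 6440 counts. These are 939 ± 34.3 CPM with DMSO and 229 ± 2.67 CPM with dBET1 (SD, n = 2), a 4.10-fold lower level, and the replicates lay close together in both groups. PODXL2, a sialomucin that can carry selectin ligands, had 3046, 3049, 772 and 771 counts. LRFN4, a synaptic adhesion protein, had 2342, 2538, 442 and 372 counts. TNFRSF8 (CD30), a receptor of the TNF family known from lymphomas, had 1855, 1726, 262 and 190 counts, and 14.6% of its CPM was left. In each of these genes the replicates of a group differed far less than the groups. Among the others were F2RL3, a thrombin receptor of platelets (18.3% left), SELPLG, the P-selectin ligand of leukocytes (1428, 1225, 299 and 295 counts), MUC1, a membrane mucin (19.4%), P2RX5, an ATP-gated channel (27.1%), IL18RAP, a subunit of the interleukin-18 receptor (24.9%), and KCNH4, a channel of the same family as KCNH2 (25.9%). PLPPR3, RELL2 and MMP15 had 26.9% to 28.1% left.

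Ligands, secreted and matrix proteins numbered 9, and 24.1% of their summed CPM was left. GAL (ENSG00000069482, chr11:68683779-68691175, plus strand), which encodes the neuropeptide galanin, had 10068, 10153, 2216 and 2190 counts, or 311 ± 29.1 CPM with DMSO and 78.2 ± 1.30 CPM with dBET1 (SD, n = 2). JAG2, a Notch ligand, had 1850, 1808, 412 and 466 counts. COL4A2, a collagen chain of basement membranes, had 1467, 1192, 198 and 296 counts. The groups of these 3 genes were well apart, with COL4A2 the least even between its dBET1 libraries. CILP2, a cartilage matrix protein, had 978, 999, 155 and 126 counts. Close to the count minimum with DMSO were IGF1, the growth factor (21.5% left), and FJX1, a secreted relative of the fly protein four-jointed, with 459, 498, 90 and 26 counts. WNT5B, a Wnt ligand, and PRG2 had 28.6% and 27.6% left.

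Blood regulators and intracellular signalling proteins numbered 11, and 22.3% of their summed CPM was left. GRAP2, an adaptor of T-cell receptor signalling also made in other blood cells, had 4639, 3672, 942 and 865 counts. HEMGN (hemogen), a nuclear protein of blood progenitors and erythroid cells, had 3838, 2967, 577 and 552 counts, with 19.3% of its CPM left. CNKSR3, a scaffold protein, had 2388, 2055, 479 and 388 counts. LMO2, the bridging protein of the TAL1 and GATA complex that blood stem cells and erythroid cells need, lies at chr11:33858576-33892076 (minus strand), had 1530, 1366, 318 and 248 counts and kept 22.7% of its CPM. MATK, a kinase that restrains SRC family kinases, had 1471, 1584, 332 and 296 counts. ARHGAP22 (ENSG00000128805, chr10:48446036-48656265, minus strand), a GTPase-activating protein for RAC1, had 1311, 1387, 115 and 155 counts, which left 11.5%, and PSTPIP2, an adaptor that bends membranes in myeloid cells, had 925, 541, 68 and 112 counts, which left 14.4%. The remaining RAB3IL1, DIXDC1, ARHGAP24 and RAC3, regulators of small GTPases apart from the Wnt protein DIXDC1 and including the GTPase RAC3 itself, had 23.7% to 29.99% left. In all of these the lower DMSO library was more than 2 times the higher dBET1 library in CPM. The same held in each of the 64 genes. Their choice by a low ratio in the same libraries favoured this gap, so it is no separate evidence of even replicates. The share of all abundant coding genes with such a gap is not given here.

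Mitochondrial proteins numbered 10, and 26.2% of their summed CPM was left. HSPE1 (ENSG00000115541, chr2:197500140-197503449, plus strand), the co-chaperonin that caps the mitochondrial folding chamber, had 9005, 8949, 2064 and 1986 counts, or 276 ± 23.0 CPM with DMSO and 71.9 ± 2.55 CPM with dBET1 (SD, n = 2). NME4, a nucleoside diphosphate kinase of mitochondria, had 6108, 5790, 1558 and 1525 counts. STAR, the carrier that brings cholesterol to the inner mitochondrial membrane for steroid synthesis, had 3422, 2885, 513 and 403 counts, with 16.9% left. SLIRP, which stabilises mitochondrial mRNA, had 2528, 2652, 674 and 668 counts. STAR was therefore the most reduced of these 4. TOMM6, a small subunit of the import pore of the outer membrane, had 734, 323, 91 and 17 counts, so the replicates of both groups disagreed, and 12.1% of its mean CPM was left. The remaining 5 were CHCHD10, GCSH, SLC25A21, ACSS1 and DNLZ, with 22.5% to 29.4% left.

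Ribosome assembly and RNA polymerase contributed 4 genes, and 28.0% of their summed CPM was left. NOP16, a nucleolar protein of the large ribosomal subunit's assembly, had 5726, 5600, 1525 and 1298 counts. RRP9, a protein of the U3 particle that processes ribosomal RNA, had 4035, 3900, 1002 and 1018 counts. GTF3C6, a subunit of the factor TFIIIC that recruits RNA polymerase III, had 3478, 3237, 791 and 765 counts. POLR1G, a subunit of RNA polymerase I, had 3243, 3131, 717 and 713 counts. All 4 lay between 25.9% and 29.4%, a narrower range than that of any other role. Other metabolic enzymes and transporters numbered 5. NME1 (ENSG00000239672, chr17:51153559-51162428, plus strand), the cytosolic nucleoside diphosphate kinase, had 10350, 9769, 1769 and 1871 counts, with 20.9% left. SLC19A1, the reduced folate carrier that also takes up methotrexate, had 5122, 4819, 1134 and 1236 counts. PCYT2, the rate-setting enzyme of phosphatidylethanolamine synthesis, had 2361, 2331, 574 and 506 counts. These 3 were even between replicates, while MGAT3, a glycosyltransferase that adds the bisecting sugar of N-glycans, had 810, 761, 29 and 307 counts and rests on 1 dBET1 library. PTS, an enzyme of tetrahydrobiopterin synthesis, had 747, 633, 166 and 152 counts.

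Cytoskeletal, contractile and axonal proteins numbered 6, and 23.3% of their summed CPM was left. NEFH, the heavy neurofilament of axons, had 5746, 5213, 1051 and 1072 counts, or 168 ± 3.20 CPM with DMSO and 37.7 ± 0.22 CPM with dBET1 (SD, n = 2). CPNE7, a calcium-dependent membrane-binding copine, had 1941, 2313, 380 and 517 counts. PPP1R14A, an inhibitor of myosin phosphatase, had 1122, 1416, 255 and 209 counts. The others were CTXN1, a neuronal membrane protein (987, 1255, 274 and 299 counts), CRYAB, a small heat shock protein of muscle and lens (19.2%), and TNNI3, the cardiac troponin I (26.3%). NEFH and CRYAB were even between replicates in both groups. Of the 6 genes with other or less well described roles, ISOC2 had 5617, 6173, 1406 and 1445 counts, MYEOV had 3599, 3018, 599 and 608 counts, and RFESD had 3425, 2701, 731 and 788 counts. ANAPC15, a subunit of the anaphase-promoting complex, had 941, 890, 186 and 182 counts. COMTD1, the fifth, had 733, 791, 151 and 180 counts, and the sixth, PTGES3L-AARSD1, is described with the overlapping genes.

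**Figure D2:**
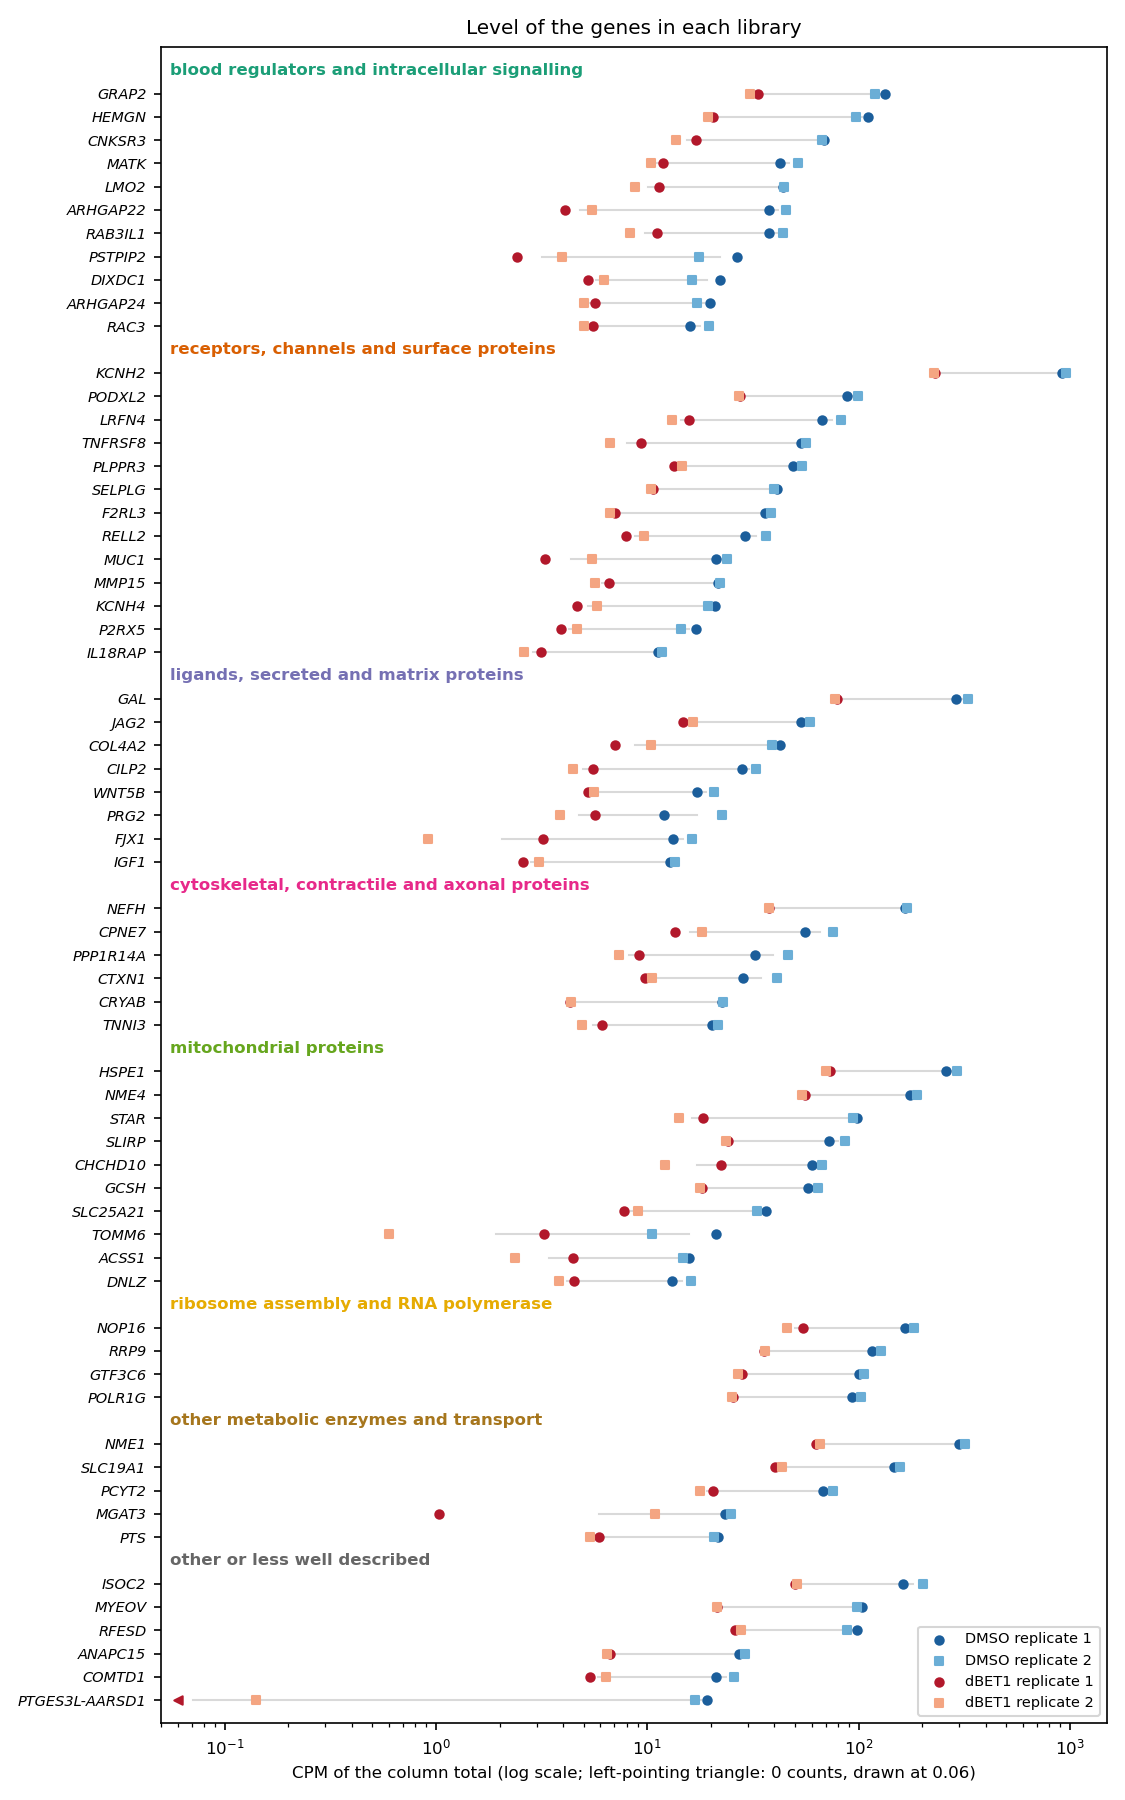
CPM of the library's total on a log axis for the 64 genes, 1 left out, in the 2 DMSO libraries (blue) and the 2 dBET1 libraries (red and orange), grouped by role and ordered by DMSO level. All blue symbols lie to the right of the red and orange ones in each row, and the dBET1 replicates are widest apart in MGAT3, TOMM6, FJX1 and PTGES3L-AARSD1, the last with 0 counts in replicate 1.

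The ratio was also formed for each of the 4 pairs of a dBET1 and a DMSO library. It was at or under 0.3 in all 4 pairs for 37 of the 64 genes and above 0.3 in at least 1 pair for the other 27, with a highest value of 0.469 in PRG2, an eosinophil granule protein. MGAT3 reached from 0.0417 to 0.464 and TOMM6 from 0.0283 to 0.308. Without dBET1 replicate 1 MGAT3 no longer met the rule, without dBET1 replicate 2 PRG2 did not, and DIXDC1 did not without DMSO replicate 1 or without dBET1 replicate 1. The most genes were lost without DMSO replicate 2, where 51 of the 64 still met the rule. Without dBET1 replicate 2 the number was 55, and without DMSO replicate 1 or dBET1 replicate 1 it was 61. The replicates differed by a median of 1.12 times with DMSO and 1.16 times with dBET1, and in 10 genes they differed by over 1.5 times within a group (among them TOMM6, MGAT3, FJX1, PRG2, PSTPIP2, CHCHD10, ACSS1, MUC1 and PTGES3L-AARSD1). The count behind a ratio varied widely: 26 genes had under 1000 counts in a DMSO library and 8 had at least 5000 in both. Just inside the limit were SLIRP, NME4 and DIXDC1, a Wnt pathway protein with 764, 499, 147 and 177 counts. Just outside it were SLC10A4 with 1160, 961, 240 and 309 counts, PKLR with 643, 515, 155 and 146 counts, and EPCAM with 1855, 1561, 430 and 460 counts, at 30.03%, 30.22% and 30.23% of their DMSO level. Genes on both sides of the limit thus differed by less than their replicates did.

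**Figure D3:**
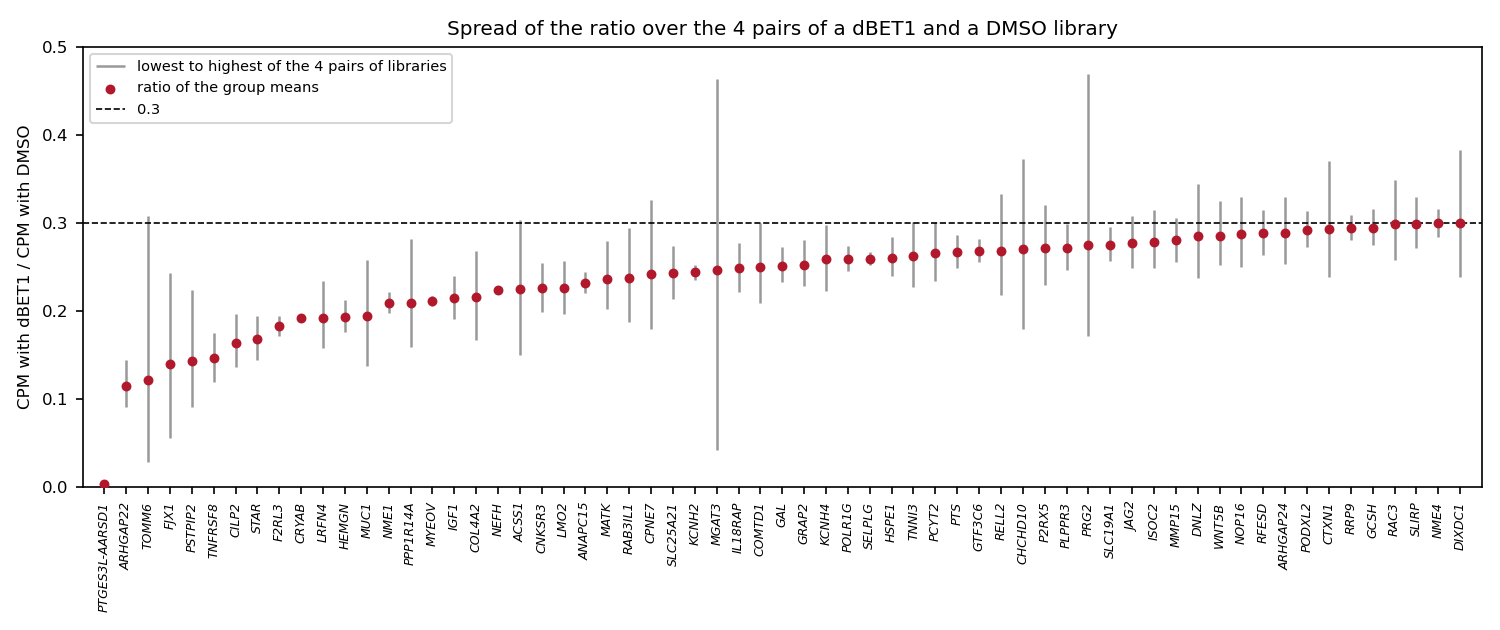
Ratio of CPM with dBET1 to CPM with DMSO for the 64 genes, 1 left out, from the lowest to the highest; the red point is the ratio of the group means and the grey line runs from the lowest to the highest of the 4 pairs of libraries. In 27 genes the line crosses the dashed limit of 0.3, and it is longest in MGAT3, PRG2 and TOMM6.

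Several of the 64 genes lie inside or across other genes, and the strand setting of the counting is not given in the sources used here, so their counts cannot be fully separated from those of their neighbours. A gene on the same strand that shares its span and had at least 10% of its counts was found for 8 of the 64, and on either strand for 22. PTGES3L-AARSD1 (ENSG00000108825, chr17:42950526-42980528, minus strand), a read-through transcript of 2 adjoining genes, had 664, 514, 0 and 4 counts, the lowest ratio of all at 0.393%, while the sum of PTGES3L-AARSD1, AARSD1 and PTGES3L was 1795, 1730, 800 and 818 counts and kept 53.0%. NME1, NME1-NME2 and NME2 summed to 34504, 35374, 15503 and 14742 counts and kept 49.9%. TOMM6 with the overlapping ENSG00000124593 kept 43.3%, P2RX5 with P2RX5-TAX1BP3 57.4%, NME4 with DECR2 36.0%, and PRG2 with ENSG00000254979 35.9%. These 6 loci were above 0.3 as sums, while IL18RAP (26.5%) and TNNI3 (23.7%) stayed under it. HSPE1 overlaps HSPD1, its chaperonin partner on the opposite strand, which had 42528, 34832, 13121 and 13576 counts, a ratio of 0.401. CRYAB overlaps HSPB2 on the opposite strand in the same way, at a ratio of 0.475.

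For 56 of the 64 genes another abundant coding gene with a ratio above 0.3 lay within 50 kb, and the nearest ones had a median ratio of 0.817, with 10 of 56 (17.9%) at 0.5 or less and 16 above 1, beside a median of 0.978 and 6.55% at 0.5 or less over all abundant coding genes. Of these 10, 4 overlap the gene itself (NME1-NME2, ENSG00000124593, HSPD1 and HSPB2). The background over all abundant coding genes includes the 70 with a ratio of at most 0.3, which were not counted as neighbours. KCNH2 lies 12696 bp from NOS3 (ratio 0.874), ARHGAP22 lies 6676 bp from MAPK8 (1.37) and TNFRSF8 lies 22784 bp from TNFRSF1B, a second TNF receptor (1.36). The lowest neighbour was RPF2, a ribosome assembly factor 14125 bp from GTF3C6, at 0.313. Some of the 64 genes were neighbours of each other: CRYAB and DIXDC1 lie 3422 bp apart on chromosome 11 with PTS in the same 500 kb, and PCYT2 lies 120246 bp from RAC3 on chromosome 17. Chromosome 11 held 11 of the 64, which were 2.14% of its 513 abundant coding genes, chromosome 22 held 4 of 207 (1.93%) and chromosome 19 held 9 of 592 (1.52%), beside 0.758% over all chromosomes.

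At the median the 64 genes were shorter than other abundant genes, a comparison made without a test. Their median gene length in GENCODE was 16612.5 bp, against 32988.5 bp for the other 8380 abundant coding genes, and 40.6% of them spanned at most 10 kb, against 17.7%. They had a median of 6 exons in the transcript used, against 10, and a spliced length of 2353 bases, against 3372.5. This was not particular to the 64. Over all abundant coding genes the median gene length was 14805 bp at a ratio of at most 0.3, 15303 bp from there to 0.5, 24976 bp to 0.8, 35501 bp in the class around 1, 45834 bp in the class above that up to 2, and 34933.5 bp above 2. ARHGAP22, with a span of 210230 bp, is one of 6 exceptions among the 64 that are over 100 kb long.

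**Figure D4:**
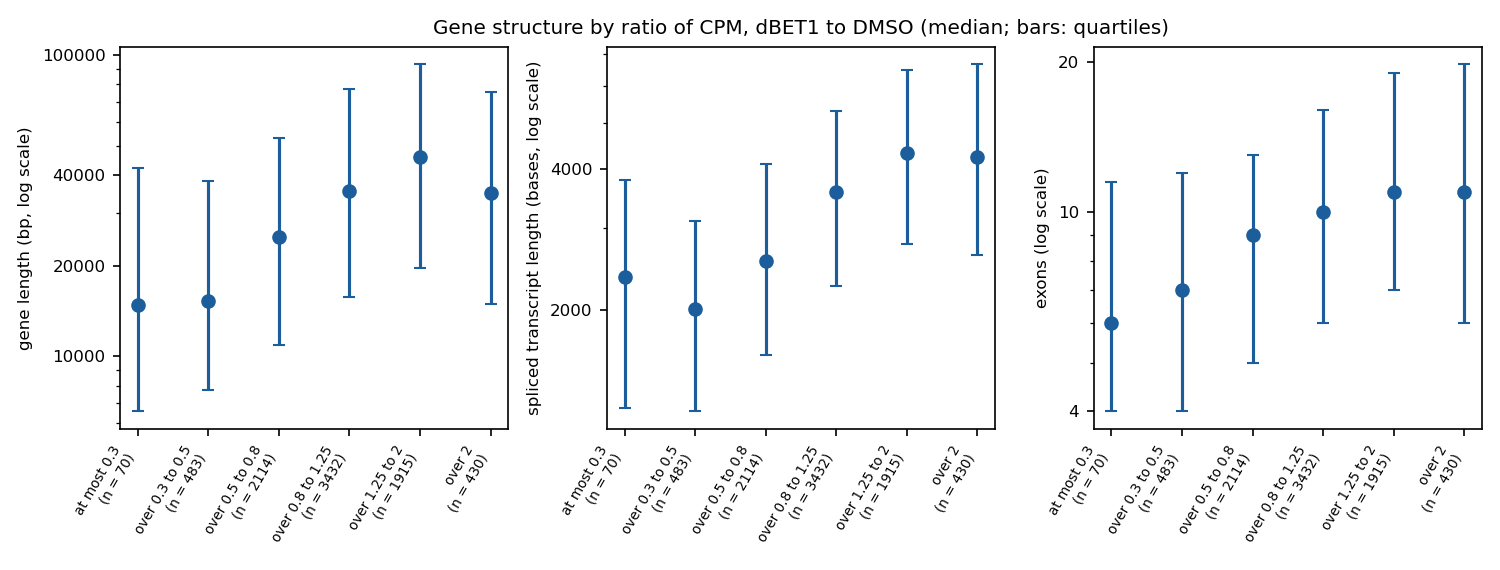
Gene length, spliced transcript length and number of exons (log scales; points are medians, bars run between the quartiles) in 6 classes of the ratio of CPM with dBET1 to CPM with DMSO, over the abundant coding genes. Median gene length is 14805 bp in the lowest class, which holds the 64 genes and the 6 left out by name, and 45834 bp in the class second from the right.

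Pathways and families of these genes were then followed through their other members, of which 361 in 15 lists were tested. Without the 64 genes, 215 of the 361 fell and 56 rose at an adjusted p under 0.05, with a median log2 fold change of -0.57. The background is a lower call for 27.6% and a higher call for 28.0% of the 17971 tested genes, with a median of 0.05, and for the 8444 abundant coding genes a lower call for 46.6% and a higher call for 18.7%, with a median of -0.24. Scaled by total counts alone, without TMM factors, the median of all tested genes was 0.26, and the fold changes given for the lists would be higher by the difference from 0.05. Values are log2 fold changes of dBET1 over DMSO with their standard errors, n = 2 libraries in each group, and counts of calls rest on edgeR's adjusted p over all genes.

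The list of ribosome assembly factors was lower throughout. All 52 other genes of the list that were tested passed as lower and 0 as higher, with a median of -1.28 (-1.07 with total counts alone). LYAR, a nucleolar factor, fell by 1.93 ± 0.10 (5943, 6073, 1588 and 1582 counts, adjusted p = 1.19e-05 by edgeR) and RPF2 by 1.88 ± 0.08. WDR4, listed here although its known role is in tRNA methylation, fell by 1.84 ± 0.09. The smallest change in the list was that of NOB1, -0.53 ± 0.09. Mitochondrial import and chaperonin genes, the list of HSPE1, TOMM6 and DNLZ, had 33 of 35 lower and 0 higher, with a median of -0.84. TOMM5, a companion of TOMM6 in the import pore, fell by 1.79 ± 0.09 with 6809, 6612, 2020 and 1871 counts, and TIMM10 and TOMM40 fell by 1.77 ± 0.11 and 1.70 ± 0.10. Nucleoside diphosphate and related kinases had 9 of 13 lower and 0 higher, with a median of -0.69. AK6 and AK4, kinases of the adenylate kinase family, fell by 1.28 ± 0.13 and 0.88 ± 0.11, and NME3 and NME2, relatives of NME1, fell by 0.73 and 0.69. hnRNP proteins, which bind and process pre-mRNA and had no gene among the 64, had 26 of 33 lower and 3 higher, with a median of -0.69. HNRNPA2B1 fell by 1.85 ± 0.07 with 55655, 50132, 14255 and 15019 counts, whereas HNRNPH2 rose by 0.50 ± 0.08.

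Lists with a blood or signalling role were mixed. Haematopoietic transcription factors and their partners, the list of LMO2 and HEMGN, had 16 of 28 lower and 6 higher, with a median of -0.36. MYB, a factor of blood progenitors, fell by 1.85 ± 0.09 (7418, 5699, 1754 and 1846 counts, adjusted p = 8.74e-06 by edgeR), MLLT3 by 1.80 ± 0.16 and TCF3 by 1.26 ± 0.08, while of the partners of LMO2 in its complex LDB1, GATA1 and GATA2 fell by 1.08, 0.50 and 0.24 and TAL1 had a value of 0.18 (adjusted p = 0.0876 by edgeR, with 3832, 3180, 3758 and 4159 counts). HHEX rose by 0.98 ± 0.07, and CEBPA, the factor of granulocyte fate, rose from 5 and 7 counts to 58 and 54. The 6 higher calls were 3 without dBET1 replicate 2. SH2 and SH3 adaptors and tyrosine kinase signalling had 16 of 29 lower and 3 higher, with a median of -0.39. UBASH3A, a regulator of T-cell receptor signalling, fell by 3.61 ± 0.30 with 334, 293, 18 and 33 counts, and LCP2, the adaptor that GRAP2 binds, fell by 0.83, whereas CBL rose by 0.76 ± 0.12. The 16 lower calls were 10 without dBET1 replicate 1 and 10 with total counts alone, where 7 were higher, and 5 were higher with either DMSO library left out. Leukocyte adhesion and integrin activation genes had 8 of 24 lower and 7 higher, with a median of 0.13. FERMT3, the integrin activator kindlin-3, fell by 1.93 ± 0.08 and F2R, the thrombin receptor related to F2RL3, by 0.66, while ITGAM, an integrin chain of myeloid cells, rose from 22 and 9 counts to 170 and 152. The 7 higher calls were 4 without dBET1 replicate 2 and 11 with total counts alone.

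Potassium channels of the ether-a-go-go and related families had 3 of 7 lower and 2 higher, and their median of -0.20 was 0.01 with total counts alone. KCNE3, a subunit that modulates such channels, fell by 0.94 ± 0.20, while KCNH3, a relative of KCNH2 and KCNH4, had 0, 5, 50 and 39 counts. The 2 higher calls were 1 without dBET1 replicate 1. Neuropeptide, synaptic and axonal genes had 9 of 18 lower and 3 higher, with a median of -0.31. NMU, the neuropeptide neuromedin U, fell by 1.66 ± 0.09 with 4426, 4131, 1323 and 1393 counts. The 3 higher calls were 1 with either dBET1 library left out and 5 with total counts alone. Notch and Wnt genes had 8 of 26 lower and 8 higher, with a median of 0.09. WNT10B fell by 1.67 ± 0.26 and NOTCH3 rose by 2.08 ± 0.34. The 8 higher calls were 4 with either dBET1 library left out, and the median was -0.04 without dBET1 replicate 1 and -0.02 without DMSO replicate 2. Intermediate filaments and lamins had 4 of 10 lower and 1 higher, and their median of -0.16 was 0.05 with total counts alone. DES, the muscle filament desmin, fell by 1.53 ± 0.13. The higher calls were 2 without DMSO replicate 2 and 3 with total counts alone.

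Among metabolic lists, vitamin and cofactor uptake had 9 of 17 lower and 3 higher, with a median of -0.87. SLC5A6, the carrier of biotin and pantothenate, fell by 1.91 ± 0.09 with 9137, 7352, 2040 and 2312 counts. The 3 higher calls were 1 without dBET1 replicate 1, 0 without dBET1 replicate 2, 1 with DESeq2 and 6 with total counts alone. Ethanolamine and choline phospholipid synthesis had 7 of 13 lower and 4 higher, with a median of -0.43. PEMT, which turns phosphatidylethanolamine into phosphatidylcholine, fell by 1.42 ± 0.16 and CHKB, a choline kinase, rose by 0.98 ± 0.20. The 4 higher calls were 2 without dBET1 replicate 2. Cholesterol uptake and transport had 4 of 20 lower and 7 higher, with a median of 0.04. SCARB1, the receptor for high-density lipoprotein, fell by 1.72 ± 0.08 (5198, 4333, 1416 and 1458 counts), while NPC2, which moves cholesterol out of lysosomes, rose by 1.30. The 7 higher calls were 11 with total counts alone, and the median was -0.05 without DMSO replicate 1 and -0.01 without dBET1 replicate 2.

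**Figure D5:**
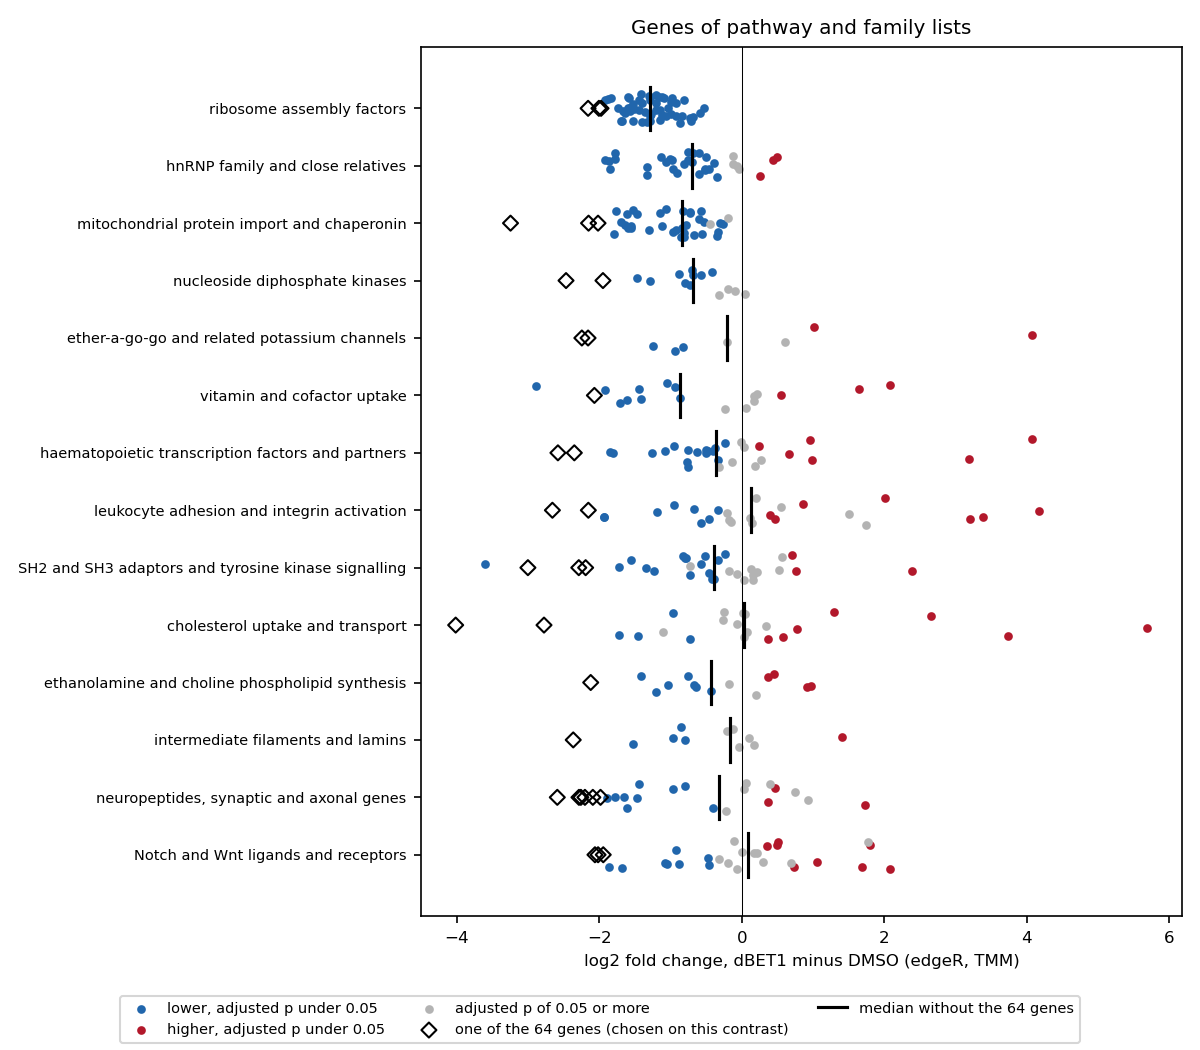
Log2 fold change (dBET1 minus DMSO, edgeR with TMM) of the genes in the lists described; blue points fell and red points rose at an adjusted p under 0.05, grey points did not pass, black bars are medians without the 64 genes and open diamonds are the 64 genes in the lists, chosen on this contrast. All 52 genes of the ribosome assembly list other than the diamonds are blue, while cholesterol transport has 4 blue and 7 red points.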

How the data were processed

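RNA of 4 libraries was used, 2 with DMSO and 2 with dBET1, grouped by their labels. The authors aligned paired-end reads to hg38 with HISAT2 2.2.0 and ran StringTie. The counts they deposited are whole numbers for each Ensembl gene, with no normalization. How abundances became counts, and with which strand setting, is not given in the sources used here. The control columns are named NC and were taken as DMSO, the only control group. All columns were used, and 0 rows named no gene. Gene types, coordinates and structure came from GENCODE release 44, which held 56105 of the 64252 identifiers. The others held 2.57% of the counts.

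The 64 genes and the lists were chosen with earlier results of these data known, and roles were assigned after the genes were seen. CPM used the library total. The test was edgeR 4.0.16 (R 4.3.3; filterByExpr, TMM factors of 0.918 to 1.08, quasi-likelihood, group only), with p adjusted by Benjamini and Hochberg over 17971 genes. Standard errors were derived from the F statistic. The coefficient of variation between libraries of a group, as edgeR estimates it beyond counting error, was 0.123 and may be technical. Replicates were further apart than counting error allows (chi-square per degree of freedom 23.6 for DMSO and 8.14 for dBET1). In 5 simulated data sets, 85.4% of 200 changed genes were called, with a mean of 7.4 unchanged genes called. Far fewer genes were changed there than were called in the data, and all by more than the fold-change threshold. The share therefore says nothing about smaller changes. Genes named with library counts were the lowest ratios, the most abundant genes overall and in each role and those nearest the limit; of list genes, the largest changes in each direction and close relatives of the 64. Counts of LMO2, PTS, SELPLG, COMTD1 and HSPD1 and values of LDB1, GATA1, LCP2 and NPC2 go beyond this rule and were chosen after their values were seen. Alternatives were DESeq2 1.42.0 and its size factors, total counts only, other count filters, each library left out, a block for the replicate number, other limits and, added after seeing the data, sums over overlapping genes. Some genes and 1 list that entered the counts are not reported here.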

Additional observations from a re-analysis of the deposited data

How the results depend on the processing

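How many genes the rule takes depended on its scale: 118 with TMM-normalized library sizes and 126 with DESeq2 size factors, each holding all 64, as both scales lower every ratio. A ratio limit of 0.25 took 32 and one of 0.35 took 123, while count minimums of 150 and 600 took 76 and 48. Leaving out 1 library took 66 to 74 genes, 51 to 61 of them among the 64. Summing overlapping genes on the same strand, an alternative chosen after seeing the data, left 58. The median log2 ratio of the 64 genes was -1.996, -2.21 with TMM-normalized library sizes and -2.06 to -1.96 with a library left out. Genes lower at both thresholds numbered 1535, but 952 with total counts only, and genes higher numbered 3032, but 1940 with at least 10 counts in every library. Higher calls were 66.4% of both directions in the main test and 80.2% with total counts only. At an adjusted p alone, 5038 genes were higher, and 3356 to 5118 with a library left out, the lowest without dBET1 replicate 2. List genes higher were 56, 37 with no count filter and 33 to 60 with a library left out, again lowest without dBET1 replicate 2; list genes lower were 215, and 188 to 227 under all alternatives. Of 300 recomputed counts per list, 271 stayed within 1.5 times. The ratio of median gene lengths, 64 genes to the comparison genes, was 0.504, and 0.468 against genes with a ratio near 1. CACGTG was found at 26.5% of the matched promoters, and at 24.5% in a window that began 100 bases before the start. With under 80% of the 64 genes matched, both shares are a description and allow no comparison with other genes.

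Same-numbered libraries did not deviate together (correlation -0.00753). With 2 libraries in each group this cannot show whether same-numbered libraries shared a culture, and the labels do not say. With the replicate block, 1530 genes were lower and 2945 higher at both thresholds, 4897 and 4976 at an adjusted p alone, and 215 and 54 list genes. Groups of 2 libraries leave SDs that rest on 2 values, and counts under 1000 make the single ratios of 26 of the 64 genes least precise.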
